A study of Homo sapiens with 4 samples.

Results

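The 41 genes described here are MYC, a transcription factor known for driving ribosome production, and 40 factors that make, modify and assemble ribosomal RNA (rRNA) in the nucleolus. They were chosen by gene symbol from textbook roles and not by their values, although results of these data were known when the list was drawn up. All 41 symbols were found among the 58735 genes of the deposited tables, and each matched 1 gene. RNA was sequenced from 769-P, an established human renal clear cell carcinoma line in which a doxycycline-inducible short hairpin RNA against USP35, a deubiquitylating enzyme, had been stably integrated. The 2 groups, each of 2 libraries, were untreated cells and cells kept for 4 days in 1 µg/ml doxycycline, and all 4 libraries came from wild-type cells that carry the hairpin and grew in puromycin. Cells that received the drug but lack the hairpin were not analysed here, so the effects of the drug and of the hairpin cannot be told apart. The labels name 1 hairpin and do not state whether replicates were grown separately, so a p-value reflects only library-to-library spread, possibly technical.

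Making a ribosome starts with RNA polymerase I, which copies ribosomal DNA into 1 long precursor. Small nucleolar ribonucleoproteins (snoRNPs) guide the methylation and pseudouridylation of that precursor. The small subunit processome folds and cuts it to release the future 40S subunit, and a separate set of factors, the PES1-BOP1-WDR12 complex among them, matures the 60S subunit. MYC binds DNA as a partner of MAX at the E-box hexamer CACGTG and is known for activating genes at each of these stages, while MXD proteins compete for MAX and act as repressors. Renal clear cell carcinomas are known for losing VHL, and the hypoxia-inducible factors stabilised by that loss are known to act on MYC and its partners.

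Some promoters of the assembly factors carry the sequence that MYC and MAX recognise, and sites are shown as background on the members. Windows from 250 bases before to 50 bases after the start, taken from RefSeq on GRCh38.p14, matched 33 of the 41 genes by symbol, in 42 windows. BOP1, MYC, NOLC1, NOP58, POLR1E, RRP12, RRP1B and TCOF1 were not matched. The hexamer CACGTG reads the same on both strands, so each match was counted once, and no other motif was searched. It stood in at least 1 window of 16 of the 33 matched members, or 48.5%. Of all 35116 windows in that table, 7.26% held it, and of the 8471 tested genes with a window, 13.2% did. The 16 genes were BYSL, DDX21, FBL, GAR1, GNL3, MYBBP1A, NOP14, NOP2, PES1, RCL1, RRP9, UTP14A, UTP18, UTP20, UTP4 and WDR43. Of the 17 matches, 15 began within 50 bases of the start and 11 lay after it.

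These 9 sites are printed, each as 30 bases read 5′ to 3′ on the strand of the gene with the hexamer in capitals. The first 5 come from genes whose doxycycline libraries both lay below both controls, and UTP18, which encodes a small subunit processome protein, has 2 sites.
UTP18 upstream site: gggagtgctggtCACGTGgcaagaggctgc
UTP18 site after the start: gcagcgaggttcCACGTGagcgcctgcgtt
FBL: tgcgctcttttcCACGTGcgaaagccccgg
MYBBP1A: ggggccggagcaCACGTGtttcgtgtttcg
RCL1: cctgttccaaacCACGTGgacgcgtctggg
The remaining 4 belong to genes whose 2 groups overlapped or, for GNL3, whose doxycycline libraries both lay above the controls.
GNL3: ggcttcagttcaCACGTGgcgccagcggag
WDR43: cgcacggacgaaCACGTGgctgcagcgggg
PES1: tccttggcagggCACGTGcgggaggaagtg
DDX21: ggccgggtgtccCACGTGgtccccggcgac
The UTP18 sites lie at chr17:51260445-51260474 and chr17:51260538-51260567 on the plus strand, and the hexamers begin at positions -89 and 5 relative to the start. The FBL site is at chr19:39846356-39846385 on the minus strand and the MYBBP1A site at chr17:4555340-4555369 on the minus strand. The RCL1 site is at chr9:4792936-4792965 and the GNL3 site at chr3:52686026-52686055, both on the plus strand. WDR43 has its site at chr2:28894658-28894687 on the plus strand, PES1 at chr22:30591880-30591909 on the minus strand and DDX21 at chr10:68956604-68956633 on the plus strand.

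UTP20 shows the arrangement in its longer context, the 250 bases just before its start at chr12:101279855-101280104 on the plus strand, with the single hexamer in capitals.
UTP20: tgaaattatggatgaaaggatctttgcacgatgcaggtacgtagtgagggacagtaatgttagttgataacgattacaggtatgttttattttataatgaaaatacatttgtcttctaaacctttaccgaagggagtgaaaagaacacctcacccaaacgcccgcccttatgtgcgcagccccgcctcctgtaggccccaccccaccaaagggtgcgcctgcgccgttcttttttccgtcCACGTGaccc
Its hexamer begins at position -10 relative to the start, in a stretch of 47.6% GC. A match is a description of the letters and not of binding. Members with the hexamer were not all lower with doxycycline: of the 15 tested, 5 lay below both controls, 1 above both and 9 overlapped, with a median log2 difference of -0.20. Of the 17 matched members without it, 4 lay below, 4 above and 9 overlapped, with a median of -0.29. Among all tested genes, 28.9% lay below and 24.3% above.

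Depth, recovered from the deposited values, was 16319640 and 17244546 reads for the untreated libraries and 17481827 and 18764546 reads for the treated ones. USP35 (ENSG00000118369), the gene the hairpin targets, stood at 3.31 and 4.19 FPKM untreated and 2.11 and 2.54 with doxycycline, a ratio of means of 0.62 (log2 difference -0.51, SE 0.20, limma adjusted p = 0.256). Its doxycycline libraries both lay below both controls, but the difference did not pass the test, and with an adjustment for GC content it was -0.20 (limma adjusted p = 0.694). FPKM is a count of fragments scaled to gene length and library size. For the members that length equalled all annotated exonic bases, so levels set side by side between genes depend on the annotation. A value is relative to the size set for its library, which was 97.2% to 107.5% of the recovered reads. In bulk RNA, fewer cells with a transcript and less transcript per cell cannot be told apart. Doxycycline replicate 2 stood apart in its mitochondrially encoded reads, 14.6% of the library against 7.44% to 8.50% in the other libraries. Of 9 renal carcinoma line markers, 8 averaged at least 1 FPKM, and the transcription factor PAX8 lay between 38.5 and 53.9 FPKM. CA9, a marker of this tumour type, was the exception, with 0 or 1 read per library. None of 15 endothelial, leukocyte and fibroblast markers reached that mean, and PECAM1, CDH5, KDR, CD3E, LYZ and LUM were at 0 in all 4 libraries. The summed level of these 15 was at most 0.811 FPKM per list and library.

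MYC and most assembly factors were abundant in untreated cells, and the median factor was lower with doxycycline, although none passed the test. Of the 41 genes, 40 averaged at least 1 FPKM and were tested within a fit of 12029 genes. At a limma adjusted p under 0.05, 0 of 40 members were called, and 0% of all genes were, the lowest adjusted p being 0.119 for a member and 0.0573 for any gene. At an unadjusted p under 0.05, 6 members were lower, BOP1, FBL, TCOF1, UBTF, UTP18 and UTP20, and 0 were higher. Across all genes 11.9% were lower and 6.47% higher at that unadjusted p, so the 15.0% of members that were lower stands near the background.

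Both doxycycline libraries lay below both controls for 13 members, or 32.5%, beside 28.9% of all genes, again a share near the background. These were BOP1, DKC1, FBL, MYBBP1A, NCL, NOP56, NOP58, RCL1, RRP1B, TCOF1, UBTF, UTP18 and UTP20. Both lay above both controls for 5 members, or 12.5%, beside 24.3% of all genes: GNL3, POLR1B, RRN3, WDR12 and WDR75. The other 22 tested members overlapped. Their background shares move with the scaling: after rescaling without mitochondrially encoded genes, 23.5% of all genes lay below and 31.2% above, while the same 13 members lay below and 8 above. The median log2 difference of the 40 members, on the log2(FPKM + 1) scale and doxycycline minus control, was -0.28, beside -0.03 for all genes. The sign was negative for 30 of the 40, or 75.0%, beside 52.4% of all genes.

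**Figure D1:**
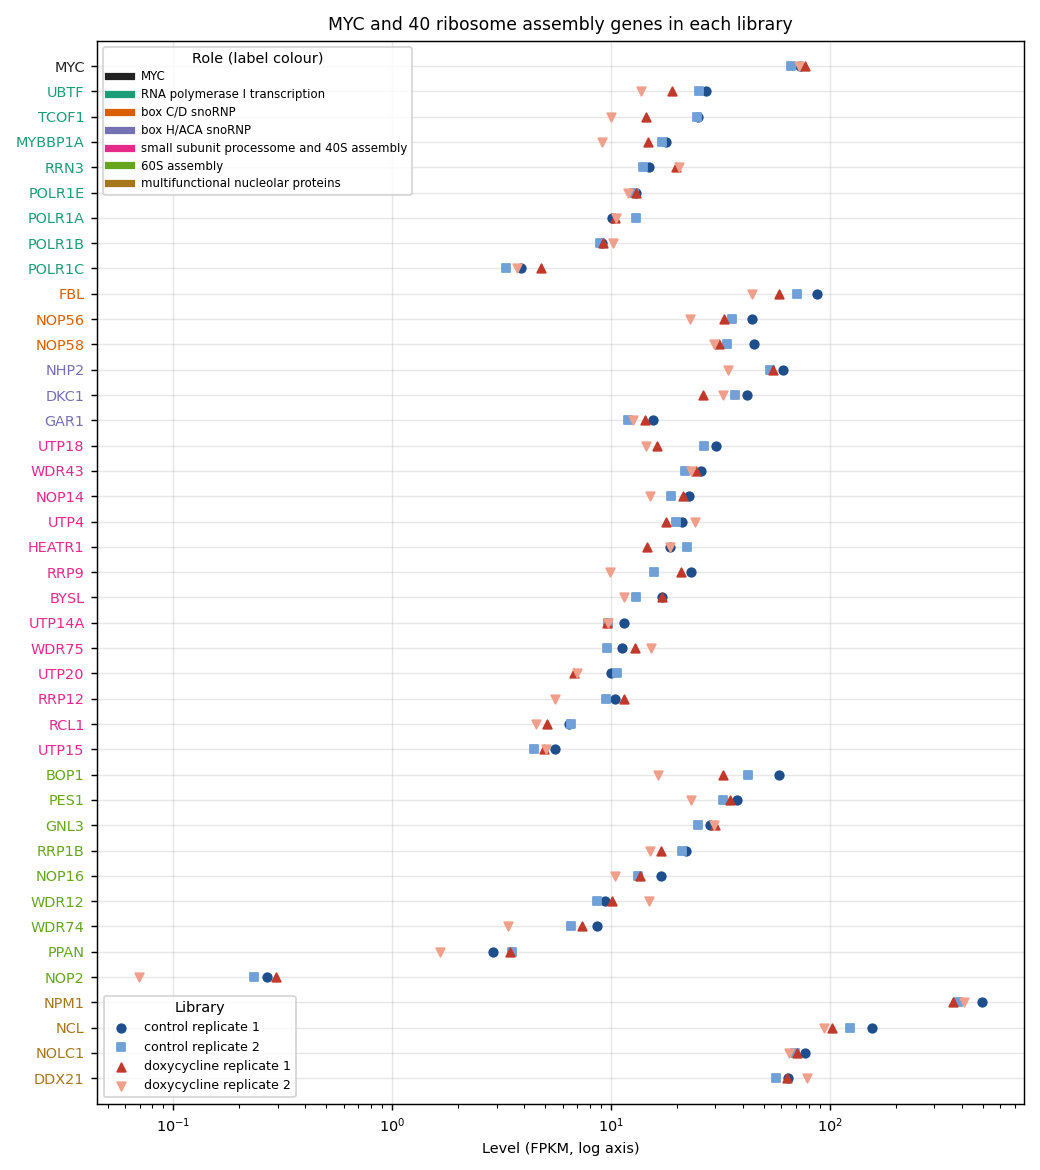
Level of each of the 41 genes in FPKM on a log axis, with 1 point per library (controls and doxycycline, replicates 1 and 2) and label colours for the role groups. NPM1 is highest, at 365 to 497 FPKM, NOP2 is lowest, at 0.0699 to 0.295 FPKM, and the MYC points lie together at 66.1 to 76.8 FPKM.

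The member median also differed between the libraries of each group. Against the control mean, the median member differed by -0.05 in doxycycline replicate 1 and by -0.37 in doxycycline replicate 2, and 10 of the 40 had opposite signs in the 2 libraries. Control replicate 2 lay below control replicate 1 in 35 of 40 members, or 87.5%, beside 58.5% of all genes, with a median difference of -0.18 beside -0.05. Without doxycycline replicate 1 the median was -0.37, without doxycycline replicate 2 it was -0.05, and without control replicate 1 or 2 it was -0.15 or -0.33.

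**Figure D2:**
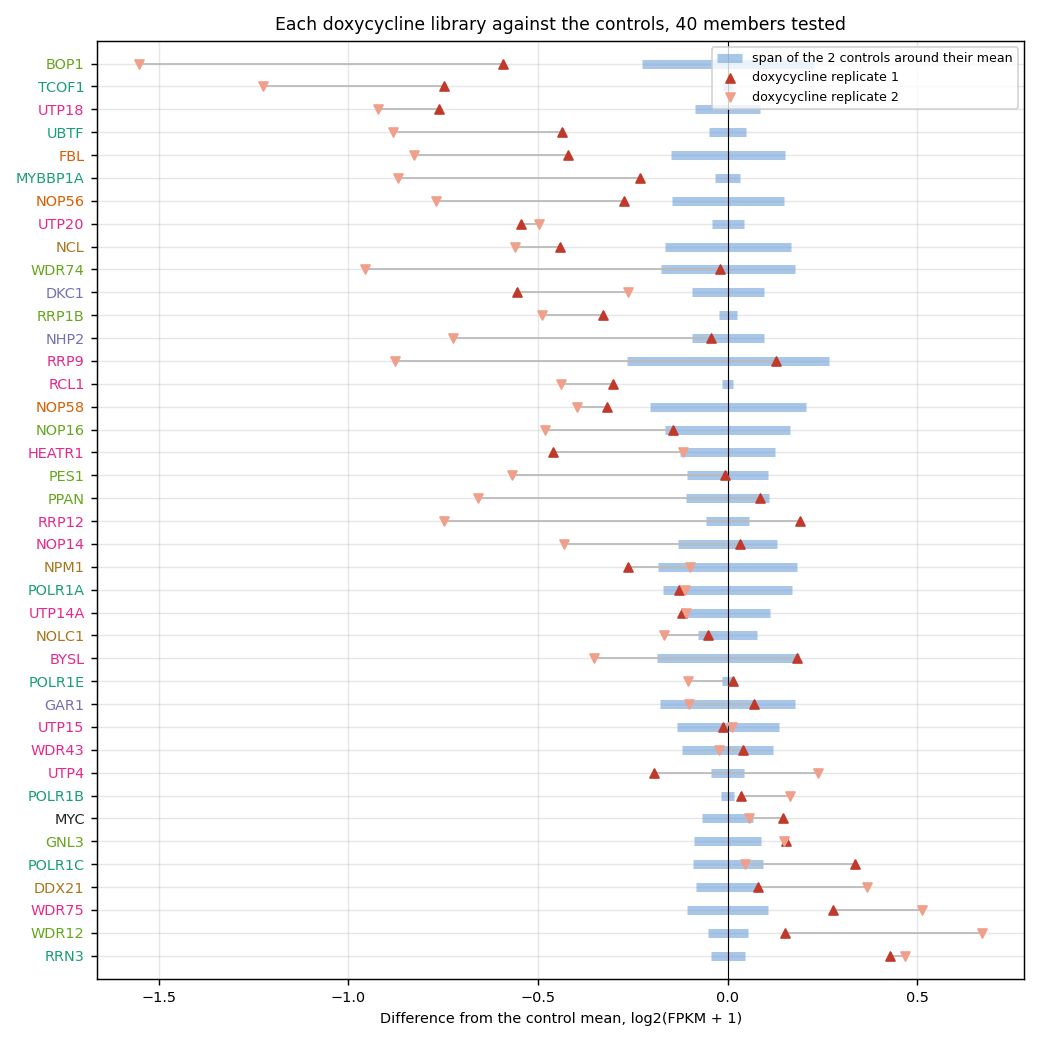
Difference of each doxycycline library from the control mean, in log2(FPKM + 1), for the 40 tested members, with a blue bar for the span of the 2 controls around their mean. By the mean of both libraries BOP1 is lowest, at -0.59 and -1.55, and RRN3 is highest, at 0.43 and 0.47, while replicate 2 lies left of replicate 1 in 27 of the 40 rows.

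MYC itself (ENSG00000136997, chr8:127735434-127741434, plus strand) was not lower with doxycycline on average. It stood at 72.7 and 66.1 FPKM untreated and 76.8 and 72.2 with doxycycline, from 3456 to 4332 reads per library. The lower doxycycline value fell between the 2 controls, so the groups overlapped. The means were 69.4 ± 4.63 (SD, n = 2) and 74.5 ± 3.26 (SD, n = 2), a log2 difference of 0.10 (SE 0.21, limma adjusted p = 0.824). The 95% interval of that difference, -0.42 to 0.62, leaves room for changes in either direction. Under quantile normalization, median-of-ratios scaling and scaling without mitochondrially encoded genes, both doxycycline values lay above both controls. Among the 41 genes MYC ranked 5 by its control mean, behind NPM1, NCL, FBL and NOLC1, and 3 by its doxycycline mean. Its control level did not differ from that of NOLC1 beyond their spread, nor its doxycycline level from that of DDX21.

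The genes of RNA polymerase I transcription split, with factors that act on the ribosomal DNA promoter on opposite sides. TCOF1 (ENSG00000070814, chr5:150357629-150400308, plus strand) encodes treacle, a nucleolar protein that supports ribosomal DNA transcription and is mutated in Treacher Collins syndrome. It stood at 25.1 and 24.6 FPKM untreated and 14.4 and 10.0 with doxycycline. Both doxycycline values lay far below the 2 controls, which were close together. The means were 24.8 ± 0.335 and 12.2 ± 3.07 (SD, n = 2 each), a ratio of 0.492, and the log2 difference was -0.99 (SE 0.23, 95% interval -1.55 to -0.43, limma adjusted p = 0.119). Its unadjusted p was the lowest of any member, and its adjusted p was 0.000871 without doxycycline replicate 1 and 0.0264 without doxycycline replicate 2, where 19.9% and 8.39% of all genes were called lower. Without control replicate 1 or 2 its limma adjusted p was 0.869 or 0.634. With a voom fit on recovered reads weighted by library quality its adjusted p was 0.0443, where 2.76% of all genes were called lower.

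UBTF (ENSG00000108312, chr17:44205033-44221626, minus strand), the upstream binding factor that holds ribosomal DNA in an active state, stood at 27.1 and 25.3 FPKM untreated and 19.1 and 13.7 with doxycycline. Both doxycycline values were again below both controls. The means were 26.2 ± 1.28 and 16.4 ± 3.77 (SD, n = 2 each), and the log2 difference was -0.66 (SE 0.23, limma adjusted p = 0.219). RRN3 (ENSG00000085721, chr16:15060022-15094317, minus strand) encodes TIF-IA, which recruits RNA polymerase I to the promoter. Its values were 14.9 and 13.98 FPKM untreated and 19.8 and 20.4 with doxycycline, both above both controls. The means were 14.5 ± 0.68 and 20.1 ± 0.42 (SD, n = 2 each), and the log2 difference, 0.45 (SE 0.18, limma adjusted p = 0.276), was the highest of the 40. Reads assigned to its 2 named pseudogenes came to 8.32% of its own, so part of its value could be split with them. The GC content of the longest annotated transcript was 55.0% for UBTF and 41.5% for RRN3. The ratio of UBTF to RRN3 in FPKM was 1.81 in each control and 0.964 and 0.674 with doxycycline. With 2 libraries against 2, an exact two-sided permutation test of such a ratio cannot go below 0.333, the value it gave.

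The polymerase subunits themselves did not separate the groups, apart from POLR1B. POLR1A, the largest subunit, lay between 10.1 and 13.0 FPKM and overlapped. POLR1B, the second largest, was 9.11 and 8.87 FPKM untreated and 9.23 and 10.2 with doxycycline, a log2 difference of 0.10. POLR1C, which RNA polymerase III shares, lay between 3.30 and 4.78 FPKM, and POLR1E between 11.9 and 13.0, and both overlapped. MYBBP1A, a MYB-binding protein that represses ribosomal DNA transcription, was 17.9 and 17.0 FPKM untreated and 14.7 and 9.09 with doxycycline, both below both controls. In all, 3 of the 8 genes (37.5%) lay below, 2 (25.0%) above and 3 overlapped. These shares stand near the 28.9% and 24.3% of all genes. The group median of -0.08 turned to 0.01 with quantile normalization.

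The 3 members from the box C/D snoRNP, which methylates rRNA at the ribose, all lay below both controls in both doxycycline libraries. Of all genes, 28.9% did so. FBL (ENSG00000105202, chr19:39834458-39846414, minus strand) encodes fibrillarin, the methyltransferase, and its promoter site is printed above. It stood at 87.7 and 71.1 FPKM untreated and 58.8 and 44.1 with doxycycline. Both doxycycline values were below both controls, although the controls themselves were well apart. The means were 79.4 ± 11.8 and 51.4 ± 10.4 (SD, n = 2 each), a ratio of 0.647, with a log2 difference of -0.62 (SE 0.25, limma adjusted p = 0.27). NOP56 (ENSG00000101361, chr20:2652145-2658393, plus strand), a scaffold of the same particle, was 44.1 and 35.7 FPKM untreated and 32.7 and 22.9 with doxycycline. Its log2 difference was -0.52 (SE 0.26, limma adjusted p = 0.334), from means of 39.9 ± 5.92 and 27.8 ± 6.92 (SD, n = 2 each). NOP58, the paired scaffold, went from 45.2 and 33.7 FPKM to 31.1 and 29.4, a log2 difference of -0.36 (SE 0.23, limma adjusted p = 0.441). The ratio of FBL to NOP56 in FPKM was 1.99 in each control and 1.80 and 1.93 with doxycycline, with an exact permutation p of 0.333.

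In the box H/ACA snoRNP, which makes pseudouridine and shares its core with telomerase, DKC1 alone separated the groups. DKC1 (ENSG00000130826, chrX:154762742-154777689, plus strand) encodes dyskerin, the pseudouridine synthase. It stood at 42.0 and 36.7 FPKM untreated and 26.4 and 32.5 with doxycycline, both below both controls. The means were 39.3 ± 3.73 and 29.4 ± 4.36 (SD, n = 2 each), and the log2 difference was -0.41 (SE 0.22, limma adjusted p = 0.369). NHP2 (ENSG00000145912, chr5:178149460-178153967, minus strand), which binds the guide RNA, was 60.9 and 53.2 FPKM untreated and 55.2 and 34.1 with doxycycline. The doxycycline replicate 1 value fell between the controls, so the groups overlapped, and the log2 difference was -0.38 (SE 0.29, limma adjusted p = 0.501). Of NHP2 exonic bases, 27.4% are shared with RMND5B on the other strand, and the strandedness of the counting is not given in the sources used here. GAR1, the remaining core protein listed, lay between 11.9 and 15.5 FPKM and overlapped, with a log2 difference of -0.02. The ratio of DKC1 to NHP2, 0.689 in each control, was 0.478 in one doxycycline library and 0.955 in the other.

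**Figure D3:**
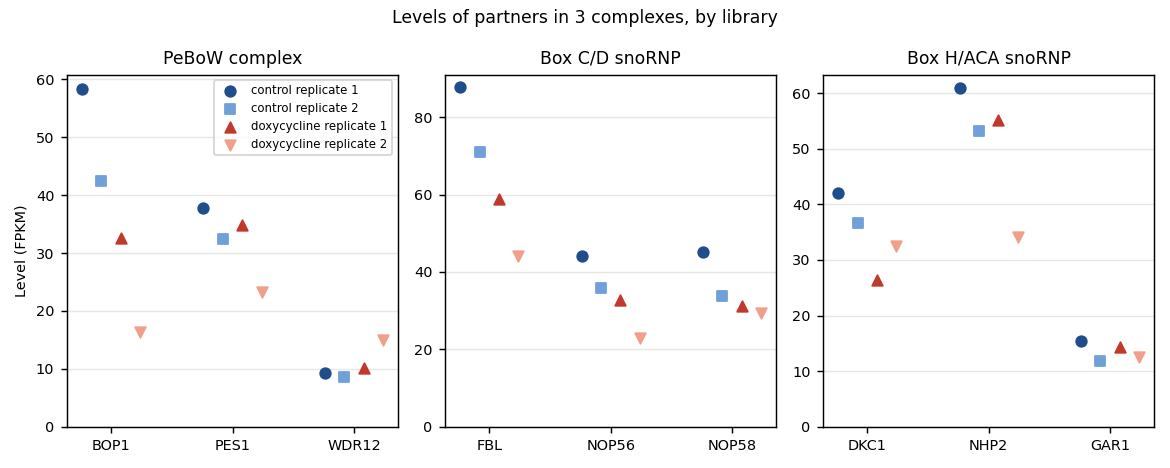
Levels in FPKM, from 0, of partners in 3 complexes, with 1 point per library. In the box C/D panel all 3 genes have both doxycycline points below both control points, while in the PES1-BOP1-WDR12 panel BOP1 lies lower and WDR12 higher with doxycycline.

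Among 13 genes of the small subunit processome and 40S assembly, UTP18 and UTP20 had the lowest p-values, and most of the others overlapped. UTP18 (ENSG00000011260, chr17:51260528-51297936, plus strand), a WD-repeat protein of the processome, stood at 30.02 and 26.5 FPKM untreated and 16.2 and 14.4 with doxycycline. The 2 groups were far apart relative to their spread. Its means were 28.3 ± 2.47 and 15.3 ± 1.29 (SD, n = 2 each), a ratio of 0.542, and the log2 difference was -0.84 (SE 0.20, 95% interval -1.33 to -0.36, limma adjusted p = 0.121). UTP20 (ENSG00000120800, chr12:101280109-101386616, plus strand), a large scaffold protein, stood at 9.97 and 10.6 FPKM untreated and 6.73 and 6.99 with doxycycline. Each pair of libraries agreed closely, and both doxycycline values were below both controls. The means were 10.3 ± 0.46 and 6.86 ± 0.18 (SD, n = 2 each), and the log2 difference was -0.52 (SE 0.17, limma adjusted p = 0.209).

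RCL1, a processome protein that resembles RNA cyclases, was 6.42 and 6.57 FPKM untreated and 5.07 and 4.52 with doxycycline, both below both controls. WDR75, a processome WD-repeat protein, went the other way, from 11.3 and 9.59 FPKM to 12.8 and 15.3, with a log2 difference of 0.39. The other 9 genes overlapped, so 23.1% of the 13 lay below and 7.69% above, beside 28.9% and 24.3% of all genes. UTP4, UTP15, WDR43 and HEATR1 are among the genes of the early UTP-A module. UTP4 was 21.1 and 19.8 FPKM untreated and 17.7 and 24.3 with doxycycline, on both sides of the controls. UTP15 lay between 4.45 and 5.56 FPKM, WDR43 between 21.7 and 25.9 and HEATR1 between 14.5 and 22.3. UTP14A, another processome protein, lay between 9.61 and 11.4 FPKM. RRP9, a protein of the U3 snoRNP, was 23.1 and 15.7 FPKM untreated and 20.9 and 9.93 with doxycycline, a spread within each group wider than the gap between them. NOP14 lay between 15.1 and 22.8 FPKM, BYSL, the 40S factor bystin, between 11.5 and 17.1, and RRP12, a factor of 40S export, between 5.52 and 11.5. The ratio of UTP18 to UTP4 in FPKM was 1.42 and 1.34 in the controls, against 0.916 and 0.594 with doxycycline. The median log2 difference of the 13 was -0.20, made of -0.01 in doxycycline replicate 1 and -0.35 in doxycycline replicate 2.

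In 60S assembly, the members of the PES1-BOP1-WDR12 complex, which acts in the processing of the 60S rRNA precursor, differed in direction, with BOP1 lower and WDR12 higher in both doxycycline libraries. BOP1 (ENSG00000261236, chr8:144262102-144291370, minus strand) had the lowest log2 difference of the 40 members at the deposited scaling. It stood at 58.3 and 42.4 FPKM untreated and 32.6 and 16.3 with doxycycline. The groups did not overlap, but each group spread widely, with replicate 2 the lower in both. Its means were 50.3 ± 11.3 and 24.5 ± 11.5 (SD, n = 2 each), a ratio of 0.486, and the log2 difference was -1.07 (SE 0.36, 95% interval -1.96 to -0.19, limma adjusted p = 0.214). It was -0.65 with the GC adjustment and -0.59 without doxycycline replicate 2, in both cases less far below 0 than UTP18 and TCOF1. PES1, pescadillo, was 37.7 and 32.4 FPKM untreated and 34.8 and 23.2 with doxycycline, and overlapped. WDR12 went from 9.36 and 8.63 FPKM to 10.1 and 14.9, both above both controls, with a log2 difference of 0.41 (SE 0.23, limma adjusted p = 0.392). The ratio of BOP1 to WDR12 in FPKM was 6.23 and 4.91 in the controls, against 3.23 and 1.10 with doxycycline, with an exact permutation p of 0.333. The GC content of the longest annotated transcript was 65.2% for BOP1 and 40.2% for WDR12. WDR12 differed from the control mean by 0.15 in doxycycline replicate 1 and by 0.67 in doxycycline replicate 2.

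RRP1B (ENSG00000160208, chr21:43659548-43696079, plus strand), a nucleolar protein of 60S assembly, was 21.9 and 21.2 FPKM untreated and 17.0 and 15.1 with doxycycline. Both doxycycline values were below both controls, with means of 21.5 ± 0.53 and 16.01 ± 1.34 (SD, n = 2 each) and a log2 difference of -0.41 (SE 0.19, limma adjusted p = 0.317). GNL3, nucleostemin, was 28.4 and 25.0 FPKM untreated and 29.7 and 29.6 with doxycycline, both just above. NOP16 lay between 10.5 and 17.0 FPKM and WDR74, a nucleolar WD-repeat protein, between 3.39 and 8.64, and both overlapped. PPAN, an early 60S factor, was 2.88 and 3.51 FPKM untreated and 3.44 and 1.65 with doxycycline, from 78 to 167 reads. Of its coding bases 94.3% are shared with the read-through gene PPAN-P2RY11 on the same strand, which is listed at 0 in all 4 libraries, so its level is uncertain. NOP2, the methyltransferase of the 60S rRNA, was the member not tested, at 0.233 and 0.269 FPKM untreated and 0.0699 and 0.295 with doxycycline, from 6 to 26 reads. Of its coding bases 91.9% are shared with AC006064.6 on the same strand, also listed at 0, so its low level here is uncertain. Of the 8 genes tested, 2 (25.0%) lay below, 2 (25.0%) above and 4 overlapped, beside 28.9% and 24.3% of all genes. Their median log2 difference was -0.30. It was -0.01 without doxycycline replicate 2, -0.53 without doxycycline replicate 1 and -0.11 with the GC adjustment.

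The multifunctional nucleolar proteins included NPM1 and NCL, the members with the highest levels. NCL (ENSG00000115053, chr2:231453531-231483641, minus strand), nucleolin, stood at 156 and 124 FPKM untreated and 102 and 93.9 with doxycycline. Both doxycycline values were below both controls, with means of 140 ± 22.9 and 98.0 ± 5.81 (SD, n = 2 each) and a log2 difference of -0.50 (SE 0.24, limma adjusted p = 0.323). DDX21 (ENSG00000165732, chr10:68956128-68985073, plus strand), an RNA helicase that couples transcription with rRNA processing, was 64.1 and 57.0 FPKM untreated and 64.0 and 78.3 with doxycycline. The doxycycline replicate 1 value lay just under the higher control, and the log2 difference was 0.22 (SE 0.23, limma adjusted p = 0.618). NPM1, nucleophosmin, a histone chaperone of the nucleolus, lay between 365 and 497 FPKM and overlapped. Reads assigned to its 45 named pseudogenes came to 1.75% of its own. NOLC1, a snoRNP chaperone, lay between 64.9 and 77.1 FPKM and overlapped. The group median of -0.15 turned to 0.04 with quantile normalization.

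The difference between the 2 doxycycline libraries varied with the base composition of the members. Across the 40 members, doxycycline replicate 2 minus replicate 1 correlated with the GC content of the longest annotated transcript at r = -0.85 (Spearman's rho -0.84), beside -0.48 (rho -0.56) across 12024 genes. These are descriptions across genes of the same libraries, and genes are not independent replicates. The difference of doxycycline replicate 1 from the control mean had r = -0.13 with GC content among the members, and that of doxycycline replicate 2 had r = -0.76. The 10 members of highest GC content, 55.4% to 65.2%, were BOP1, PPAN, RRP9, MYBBP1A, RRP12, PES1, BYSL, NHP2, TCOF1 and WDR74. Their median differences from the control mean were -0.01 in replicate 1 and -0.81 in replicate 2, and all 10 were lower in replicate 2 than in replicate 1. The 10 of lowest GC content, 37.7% to 42.3%, were UTP20, HEATR1, RRN3, GNL3, NOP58, DDX21, WDR43, WDR12, UTP15 and WDR75. Theirs were 0.06 and 0.08, with 3 of 10 lower in replicate 2.

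**Figure D4:**
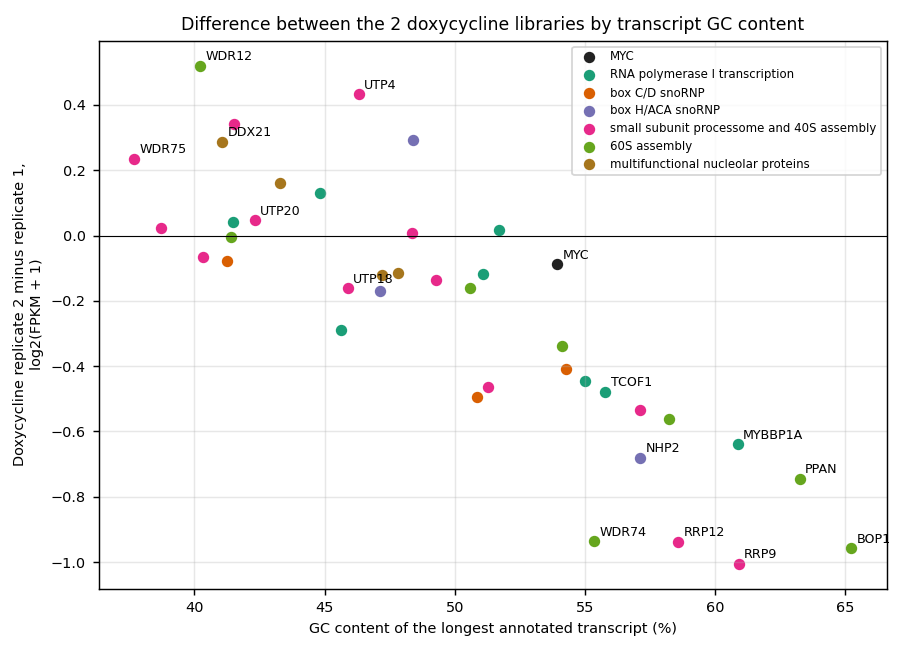
Doxycycline replicate 2 minus replicate 1, in log2(FPKM + 1), against the GC content of the longest annotated transcript in percent, with 1 coloured point per tested member. Points run from above 0 at the left to below 0 at the right, with r = -0.85 over 40 members, and all 10 members at 55.4% GC or more lie below 0.

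After an adjustment for GC content that was added once these values had been seen, the member median was -0.12, beside 0.02 for all genes, and 0 members were called. The same 13 members still lay below both controls, with HEATR1, NPM1 and UTP14A besides, so 16 of the 40, beside 26.7% of all genes. Above both controls lay 6 members, beside 28.3% of all genes. Without doxycycline replicate 1, 12 members were called lower and 1 higher, at a limma adjusted p under 0.05, beside 19.9% and 12.9% of all genes. The 12 were BOP1, FBL, MYBBP1A, NHP2, NOP56, PPAN, RRP12, RRP9, TCOF1, UBTF, UTP18 and WDR74, 8 of them among the 10 of highest GC content, and the higher one was WDR12. Without doxycycline replicate 2, TCOF1 and UTP18 alone were called lower, beside 8.39% of all genes. In each of these fits the single doxycycline library was assumed to vary as the controls did.

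Partners and targets of MYC outside ribosome assembly, and further genes of the assembly line, were also listed. The lists that follow were taken from textbook roles, and none of their 156 tested genes (of 161 listed) passed the limma test, with a median of -0.12. Below both controls lay 54, or 34.6%, beside 28.9% of all genes, and above both lay 18, or 11.5%, beside 24.3%. In the network of MAX partners, MXI1, an MXD-family repressor that competes with MYC for MAX, was 3.91 and 5.04 FPKM untreated and 10.8 and 13.6 with doxycycline. Both values were above both controls, a ratio of 2.73, with a log2 difference of 1.27 (SE 0.21, limma adjusted p = 0.069). MXD1, of the same family, was 0.784 and 0.895 FPKM untreated and 2.69 and 2.89 with doxycycline, a log2 difference of 1.04 (SE 0.20, limma adjusted p = 0.079). MXD3 went the other way, from 3.71 and 3.52 FPKM to 1.40 and 1.73, and MAX itself overlapped at 4.74 to 7.53 FPKM. The ratio of MXI1 to MYC in FPKM was 0.0538 and 0.0761 in the controls, against 0.140 and 0.189 with doxycycline. MYCN and MYCL, the paralogs of MYC, were too low to test. Of the 9 tested genes of this network, 2 (22.2%) lay below both controls and 3 (33.3%) above, beside 28.9% and 24.3% of all genes.

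Of 22 tested genes known to be activated by MYC, 13 lay below both controls and 0 above, a share of 59.1% beside 28.9% of all genes, with a median log2 difference of -0.41. That median was -0.25 without control replicate 1 and -0.63 without control replicate 2, and control replicate 2 lay below control replicate 1 in 21 of the 22. TERT, the catalytic subunit of telomerase, was 1.90 and 1.78 FPKM untreated and 0.393 and 0.214 with doxycycline, a log2 difference of -1.13 (SE 0.23, limma adjusted p = 0.087). CDC25A, a phosphatase that activates cyclin-dependent kinases, was 4.98 and 4.39 FPKM untreated and 2.52 and 1.67 with doxycycline, with a log2 difference of -0.89 (SE 0.21, limma adjusted p = 0.124). For both genes the groups were well apart. Of 5 genes known to be repressed by MYC, 2 lay above both controls and 3 overlapped. Among all genes, 24.3% lay above both controls, and 5 genes are too few to set this list apart from that share. NDRG1, a stress-responsive gene that hypoxia also induces, was 25.7 and 26.8 FPKM untreated and 99.9 and 73.9 with doxycycline, a log2 difference of 1.67 (SE 0.24, limma adjusted p = 0.057). CDKN1A, which encodes the cell cycle inhibitor p21, was 137 and 126 FPKM untreated and 287 and 279 with doxycycline, a log2 difference of 1.10 (SE 0.23, limma adjusted p = 0.094). The median of the 5 was 0.40, and without doxycycline replicate 1 it was -0.04.

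**Figure D5:**
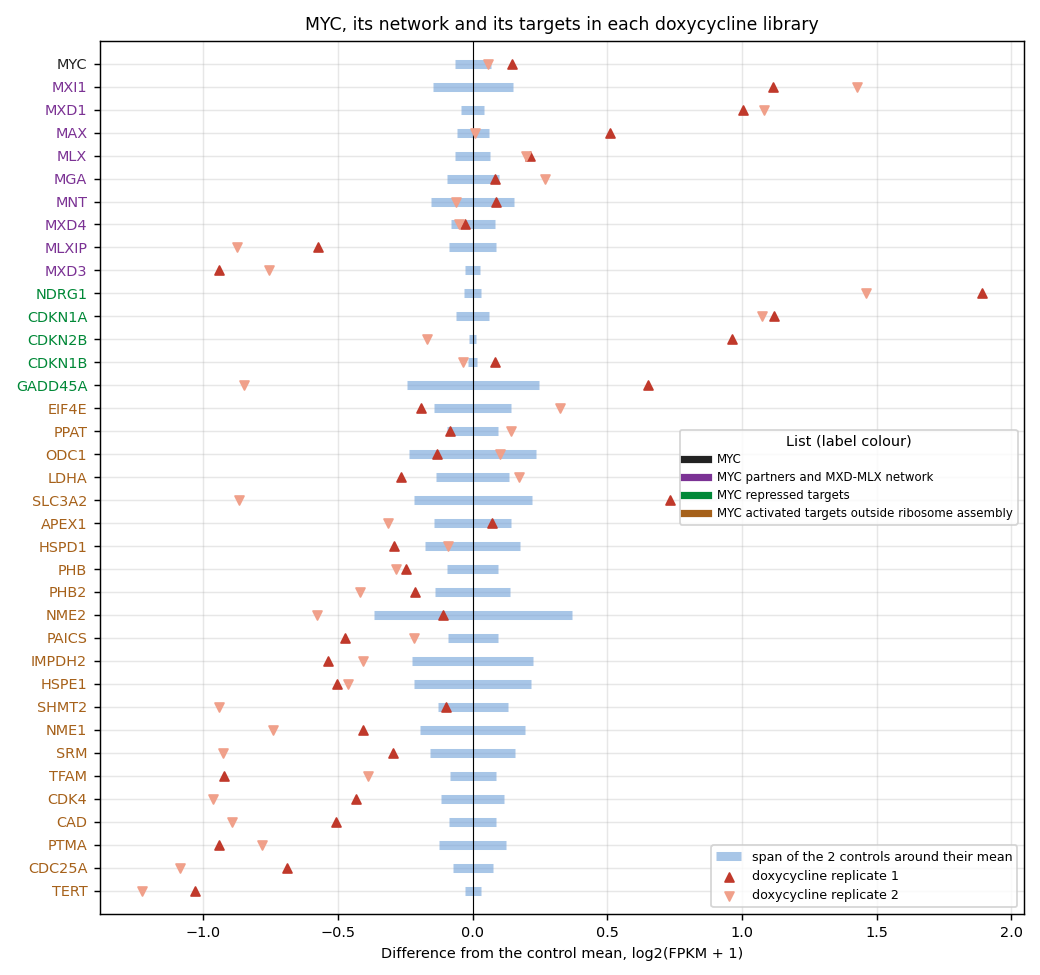
Difference of each doxycycline library from the control mean, in log2(FPKM + 1), for MYC, its partners and its known targets, with a blue bar for the span of the 2 controls around their mean. NDRG1, MXI1, CDKN1A and MXD1 lie to the right in both libraries, TERT and CDC25A to the left, and MYC lies at 0.15 and 0.06.

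Further genes of the assembly line were taken by stage. In the RNA polymerase I list 6 of 14 genes overlapped between the groups and in the snoRNP list 5 of 11, while in the other lists most did. Of all 12029 tested genes, 5625 overlapped. More genes lay below both controls than above in all lists but that of late 40S maturation. That order depended on the scaling: without mitochondrially encoded genes, the RNA polymerase I list had 4 below and 6 above, the snoRNP list 3 and 4, and the 60S list 8 and 8. Of all genes, 28.9% lay below and 24.3% above, and without mitochondrially encoded genes 23.5% and 31.2%. At the deposited scaling the lists of this and the next paragraph had 22.2% to 36.4% below, shares near the background, and 3.23% to 22.2% above. Among 14 further RNA polymerase I subunits and factors, 5 lay below both controls and 3 above, with a median of -0.03 that turned to 0.06 with quantile normalization. POLR2L, a small subunit common to the 3 nuclear polymerases, was 92.4 and 63.3 FPKM untreated and 43.5 and 29.9 with doxycycline, and CD3EAP, a polymerase I subunit, was 3.63 and 2.29 and then 1.58 and 1.36. Among 11 snoRNP core and assembly genes, 4 lay below and 2 above, led by the ATPase RUVBL2 at 51.7 and 41.2 FPKM untreated and 36.0 and 22.6 with doxycycline. PIH1D1, of the same chaperone complex, was 18.1 and 17.2 FPKM and then 16.4 and 12.3. Of 31 further small subunit processome genes tested, 10 lay below and 1 above, with a median of -0.09. Above both controls there were 8 of these genes without mitochondrially encoded genes and 7 with quantile normalization, and without control replicate 1 the median was 0.02. NAT10, the rRNA acetyltransferase, was 15.8 and 14.3 FPKM untreated and 7.79 and 7.96 with doxycycline, a log2 difference of -0.86 (limma adjusted p = 0.094). DHX37, the helicase that removes U3, was 14.1 and 13.5 FPKM and then 9.66 and 6.49.

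Among 41 further 60S assembly genes, 13 lay below and 4 above, with a median of -0.16, or -0.06 without doxycycline replicate 2. URB2 was 10.6 and 10.4 FPKM untreated and 6.87 and 6.60 with doxycycline, and the helicase DDX54 was 29.9 and 27.5 and then 19.5 and 10.9. Of 9 late 40S maturation genes, 2 lay below and 2 above. RIOK3, a kinase of the RIO family, was higher, at 15.4 and 13.6 FPKM untreated and 24.1 and 27.6 with doxycycline, while TSR3, which modifies the small subunit rRNA, was 58.0 and 46.5 and then 38.9 and 21.3. Of 14 genes of the RNA exosome, which trims rRNA precursors, 5 lay below and 1 above, with a median of -0.31. The median was -0.11 without doxycycline replicate 2, -0.49 without doxycycline replicate 1 and -0.15 without control replicate 1. EXOSC2 was 13.7 and 12.1 FPKM untreated and 8.59 and 8.06 with doxycycline, and EXOSC3 was 12.7 and 11.6 and then 10.5 and 8.06. In the lists of this and the preceding paragraph the lowest limma adjusted p was that of NAT10.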

How the data were processed

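RNA of 4 libraries was measured, and the values, deposited by the authors as FPKM per gene, came as 1 table per library, per the file headers. The submitters' processing notes list featureCounts 1.5.0-p3, HISAT2 2.0.5 and limma. Build, strandedness and library size setting are not given in the sources used here. All 58735 identifiers and coordinates matched GENCODE 29 on GRCh38 (Ensembl 94). FPKM times gene length gave whole reads for 100.0% of values within 0.02 reads, and depth came from these. A count of 0 allows up to 3 reads, 0.0798 to 0.0945 FPKM for a 2 kb gene (counting error only). The library size behind the FPKM was 97.2% and 101.0% of the recovered totals for control replicates 1 and 2. It was 107.5% and 97.6% for doxycycline replicates 1 and 2. With voom at the recovered totals, 24.5% of all genes lay below both controls and 28.5% above.

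The 12029 genes averaging 1 FPKM or more were tested on log2(FPKM + 1), which understates changes of low genes, with two-sided limma-trend (limma 3.58.1, R 4.3.3), no covariate, 2 residual degrees of freedom and Benjamini-Hochberg adjustment over these genes. Standard errors are limma's. Ratios are of FPKM means. Scripts used Python 3.11.15, pandas 2.3.3, numpy 2.4.6, scipy 1.17.1 and matplotlib 3.10.9, and were tested on simulated data. The members and lists were chosen with earlier results of these data known. All members are named, with full statistics for MYC, the 2 lowest p-values of each role and the highest and lowest difference, plus the 2 lowest p-values of each other list. Further names were chosen after their values were seen. The 16 alternatives tried changed the scaling, filter, pseudocount, model, GC content adjustment or libraries used.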

Additional observations from a re-analysis of the deposited data

How the results depend on the processing

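With 2 libraries per group, no member or other gene was called in the fit of all 4 libraries. Of 224 values (14 members under 16 alternatives), 212 kept their direction and side of the threshold, 12 moved past it and 0 reversed. Apart from MYC, the 14 were picked by low p within their role or extreme difference in these data. The filters and the replicate block also leave a log2 difference unchanged, so this count cannot measure robustness. USP35 stayed lower and uncalled in the 15 alternatives that kept it, its mean being under 5 FPKM. Genes called came to 261 with a mean of at least 5 FPKM, 242 with protein-coding genes alone, 121 with voom at median-of-ratios sizes, 474 with quality weights added and 272 with the GC adjustment, which was chosen after seeing the data. Members called came to 1 with quality weights, TCOF1, and 0 in the other 4 of these. Genes of the other lists called came to 2, 4, 2, 5 and 3 in the same order. Members above both controls came to 9 with quantile normalization. They came to 8 with median-of-ratios scaling, without mitochondrially encoded genes, and with voom at median-of-ratios sizes with or without weights. Of all genes, 26.9% to 31.2% lay above in these settings, beside 24.3% at the deposited scaling. Leaving out 1 library at a time gave 0 to 3942 genes called, 0 to 13 members called, 0 to 49 genes of the other lists called, 16 to 26 members below, 6 to 11 members above and a member median of -0.374 to -0.048. The 3942 genes and 13 members came without doxycycline replicate 1, and 1605 genes and 2 members without doxycycline replicate 2. Without control replicate 1 or 2, 16 or 26 members lay below, beside 35.33% or 40.01% of all genes. Above lay 11 or 6 members, beside 33.23% or 32.13% of all genes. Without doxycycline replicate 1 or 2, 24 or 17 members lay below, beside 45.52% or 42.2% of all genes. Above lay 7 or 9 members, beside 41.02% or 36.88%. Each of these shares of all genes was higher than in the fit of all 4 libraries. The cause of these moves was not tested.

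With the replicate number as a block, 784 of 12029 genes were called, 582 of them lower, and 2 of 40 members, a similar share. The members were BOP1 (limma adjusted p = 0.0265) and TCOF1 (limma adjusted p = 0.0308). In the other lists 8 genes were called. The labels do not say that a number marks a shared culture or day, and with 2 pairs the numbers were not taken to pair the libraries. The correlation across 12029 genes of replicate 1 minus 2 between the groups was 0.207.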
